A study of Mus musculus with 8 samples.

Results

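The tumor necrosis factor (TNF) superfamily was examined in hepatic macrophages that were loaded with cholesterol crystals. Its members were chosen by gene symbol: the numbered *Tnfsf* and *Tnfrsf* symbols and the older names *Tnf*, *Lta*, *Ltb*, *Ltbr*, *Cd40*, *Cd40lg*, *Fas*, *Fasl*, *Cd27*, *Cd70*, *Eda2r*, *Ngfr* and *Relt*. This rule found 45 of the 55401 genes of the table, namely 17 ligands, 27 receptors and 1 antisense RNA, *Tnfsf13os*. Of these, 35 reached 0.5 CPM (the count scaled to a library total of 1000000) in at least 1 library and were tested, in a fit over the 15202 genes that did so. The libraries came from cultured macrophages that had been separated from liver cells with magnetic beads against F4/80, seeded on collagen and exposed for 24 h to cholesterol crystals at 500 μg/ml (CC) or to vehicle (Veh). All mice had a C57BL/6J background. The libraries labelled normal came from WT mice on a standard diet. Those labelled steatotic came from mice without the melanocortin 4 receptor (MC4R-KO) on a Western diet for 6 to 10 wk. The study gives a shorter upper limit elsewhere. It describes these livers as steatotic, and uses such genetically obese mice as a model of nonalcoholic steatohepatitis (NASH) after longer feeding. Each of the 4 combinations of label and treatment had 2 libraries. The study gives male sex and an age at the start of the diet for its feeding experiments without restating either for these cultures. Genotype and diet differed together between the labels, so their shares in a difference cannot be told apart. The labels do not say whether libraries of a group came from separate mice or cultures, and the p-values measure the spread between these libraries, which may be technical.

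Ligands of the TNF superfamily are trimeric proteins, most of them made in the cell membrane and some of them shed from it, and they act by clustering receptors of the matching receptor superfamily. Receptors with a death domain, such as Fas and TNF receptor 1 (TNFR1), can start cell death, whereas receptors such as CD40 and TNF receptor 2 (TNFR2) bind TRAF adaptor proteins and activate NF-kB and MAP kinases. Macrophages are a main source of TNF, and several other members, such as OX40 ligand, 4-1BB ligand and GITR ligand, are known for giving costimulatory signals from antigen-presenting cells to T cells.

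*Mc4r*, the disrupted gene, was inspected first as a check of the labels. No count of it was found in the 4 normal libraries, whereas the 4 steatotic ones held from 22 to 72 counts, or 0.299 to 0.966 CPM. This direction goes against the labels, but at such low levels this gene alone cannot settle whether they are right. Every direction between the livers below therefore rests on the labels as given. Whether the disrupted allele still gives reads was not tested. The library totals ran from 58668655 to 74529462 counts. The macrophage markers *Adgre1* (F4/80), *Cd68*, *Csf1r*, *Lyz2* and *Mertk* summed to between 8131 and 14852 CPM in every library, and the defining neutrophil marker *Ly6g* was at 0 in all 8. For T and NK cell markers the sum was 16.1 to 22.4 CPM with the label steatotic, against 2.79 to 4.75 CPM with the label normal. In bulk RNA, fewer cells of a type and less RNA per cell cannot be told apart.

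Per length of gene (mean CPM per kilobase of exon), the receptors were led by *Tnfrsf1b*, which encodes TNFR2, at 185 to 326 over the 4 groups, and by *Tnfrsf1a*, which encodes TNFR1, at 99.7 to 123. *Tnf* led the ligands at 31.4 to 93.1, followed by *Tnfsf12* (TWEAK) at 19.1 to 34.2. *Ltbr*, the lymphotoxin beta receptor, stood at 49.6 to 52.8, and *Tnfrsf11a*, the receptor RANK, at 15.9 to 27.4. The lowest of the tested members were *Tnfsf13b*, *Fasl* and *Tnfsf8*, whose highest group means were 0.156, 0.400 and 0.480. The map of levels gives each tested member in all 8 libraries, not scaled by length.

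**Figure D1:**
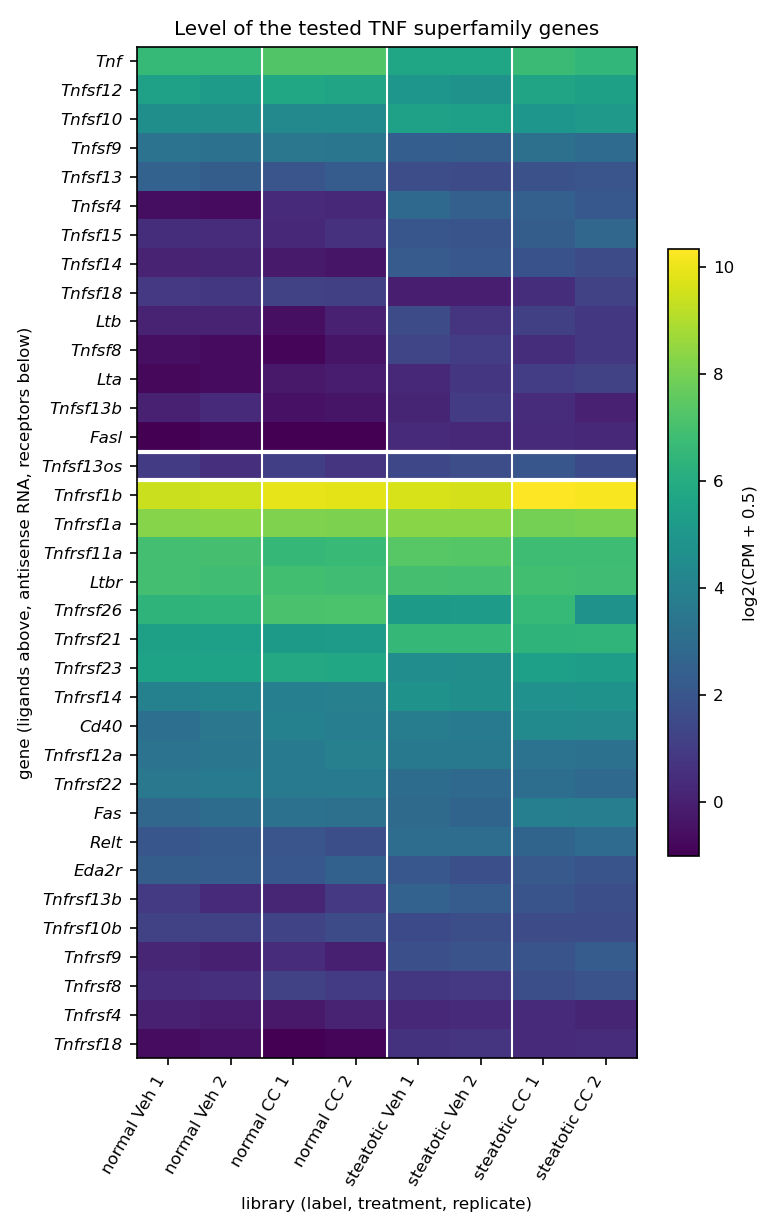
Levels of the 35 tested members in the 8 libraries, as log2(CPM + 0.5) on the color scale, with ligands above, the antisense RNA between the thick lines and receptors below, each sorted by mean CPM. *Tnfrsf1b* and *Tnfrsf1a* are brightest in all libraries, and the low ligands *Tnfsf4*, *Tnfsf14*, *Tnfsf8* and *Lta* are darker in the 4 libraries labelled normal on the left than in the 4 labelled steatotic on the right.

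The 10 members that were not tested peaked below 0.5 CPM. *Cd40lg*, *Cd70* and *Ngfr* had no counts in any library. *Cd27*, a costimulatory receptor of lymphocytes, reached 0.483 CPM and was the nearest to the limit from below, followed by *Tnfrsf25* at 0.367 CPM, while the nearest tested members peaked at 0.815 CPM (*Tnfrsf4*) and 0.823 CPM (*Fasl*). *Tnfrsf13c*, *Tnfrsf17*, *Tnfrsf19*, *Tnfrsf11b* and *Tnfsf11* (RANK ligand) peaked between 0.0641 and 0.217 CPM, where 3 fragments in a library correspond to 0.161 to 0.205 CPM. *Fasl*, *Lta*, *Tnfrsf18* and *Tnfsf8* passed the limit through libraries labelled steatotic alone, so that a higher level under that label was built into their selection, and they are given no test between the labels.

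The start of transcription of 34 members is covered by RefSeq promoter entries for GRCm38.p6, from 250 bases before to 50 bases after it. The 250 upstream bases are read from 5′ to 3′ on the strand of the gene. They are printed for *Tnf* and for the 3 members that rose at least 2-fold with CC in the libraries labelled steatotic, with an AP-1 motif (TGANTCA) in capitals. AP-1, NF-kB and EGR factors are induced in activated macrophages. *Tnf* lies at chr17:35202008-35202257 (minus strand), *Fas* at chr19:34290409-34290658 (plus strand), *Tnfrsf8* at chr4:145315165-145315414 (minus strand) and *Tnfsf18* at chr1:161494407-161494656 (plus strand), each window ending 1 base before the start.
Tnf: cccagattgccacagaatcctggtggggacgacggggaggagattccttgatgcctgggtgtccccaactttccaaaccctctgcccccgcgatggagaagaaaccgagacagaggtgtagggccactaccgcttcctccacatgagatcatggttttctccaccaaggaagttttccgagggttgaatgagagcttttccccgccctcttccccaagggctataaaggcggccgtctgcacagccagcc
Fas: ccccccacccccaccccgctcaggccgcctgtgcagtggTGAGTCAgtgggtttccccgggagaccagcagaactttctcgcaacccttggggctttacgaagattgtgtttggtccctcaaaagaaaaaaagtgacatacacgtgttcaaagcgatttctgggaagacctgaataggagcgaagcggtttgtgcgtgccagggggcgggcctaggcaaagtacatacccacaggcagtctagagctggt
Tnfrsf8: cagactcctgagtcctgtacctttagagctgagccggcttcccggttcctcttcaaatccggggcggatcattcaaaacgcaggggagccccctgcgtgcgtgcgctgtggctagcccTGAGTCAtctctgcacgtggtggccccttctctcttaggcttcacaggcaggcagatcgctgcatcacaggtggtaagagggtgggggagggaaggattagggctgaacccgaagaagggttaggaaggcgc
Tnfsf18: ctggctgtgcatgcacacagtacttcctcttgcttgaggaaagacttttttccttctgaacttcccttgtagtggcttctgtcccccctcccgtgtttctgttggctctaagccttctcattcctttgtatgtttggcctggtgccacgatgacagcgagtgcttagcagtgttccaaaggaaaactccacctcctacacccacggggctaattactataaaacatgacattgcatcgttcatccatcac

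Over the whole 300 bases and on both strands, the AP-1 letters were found in 7 of 38 entries of members (18.4%), those of *Fas*, *Tnfrsf8*, *Tnfrsf9*, *Tnfsf13*, *Tnfsf13b* and *Tnfsf14*, against 7.81% of the 32851 entries of all genes. The entries of *Tnfsf13b* overlap and hold the same site, which is counted once for each of them. An NF-kB motif (GGG, any 2 bases, TTTCC) was found in 3 entries of members, those of *Ltb*, *Tnfrsf25* and *Tnfrsf9*, against 1.63% of all entries, and an EGR motif (GCGNGGGCG) in 2, those of *Tnfrsf12a* and *Tnfrsf25*, against 5.55%. None of the 3 patterns matched in the windows of *Tnf* and *Tnfsf18*, which says only that these letters are not there. A match is a description of the sequence, and binding was not measured.

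The first question was which members responded to CC in the libraries labelled steatotic. Of the 35 tested members, 9 rose and 3 fell (edgeR quasi-likelihood test, Benjamini-Hochberg adjusted p under 0.05 over all 15202 genes), 34.3% in all, where 22.9% of all tested genes passed, 12.0% higher and 10.9% lower. The median log2 fold change of the members was 0.07, against 0 over all tested genes. *Tnf*, *Tnfrsf1b*, *Fas*, *Cd40*, *Tnfrsf8*, *Tnfrsf23*, *Tnfsf12*, *Tnfsf9* and *Tnfsf18* rose, and *Tnfrsf1a*, *Tnfrsf11a* and *Tnfsf10* fell. The size was 2-fold or more for 3 of them, *Fas*, *Tnfrsf8* and *Tnfsf18*.

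*Tnf* was at 52.2 and 50.6 CPM with Veh and at 106 and 91.0 CPM with CC in the libraries labelled steatotic. In the libraries labelled normal it was at 96.6 and 94.7 CPM with Veh and at 151 and 155 CPM with CC. Both libraries with CC were above both with Veh under each label, and the steatotic pair with CC spanned the level that the normal pair had with Veh. The log2 fold change with CC was 0.96 ± 0.072 (SE; edgeR adjusted p = 7.96e-05), or 1.94-fold, with the label steatotic and 0.71 ± 0.072 (adjusted p = 0.000812), or 1.64-fold, with the label normal. The difference between these responses was 0.25 on the log2 scale (95% interval 0.01 to 0.48, adjusted p = 0.335) and did not pass.

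The receptors of TNF moved apart. *Tnfrsf1b*, whose product TNFR2 signals through TRAF2, was at 792 and 779 CPM with Veh and at 1289.5 and 1201 CPM with CC under the label steatotic. In the libraries labelled normal, it was at 688 and 724 CPM with Veh and 956 and 943 CPM with CC. It rose under both labels, by 0.68 ± 0.045 on the log2 scale (adjusted p = 3.87e-05) and by 0.46 ± 0.045 (adjusted p = 0.000643). *Tnfrsf1a*, whose product TNFR1 carries a death domain, was at 315 and 322 CPM with Veh and at 249.9 and 267 CPM with CC under the label steatotic. With the label normal, it was at 311 and 314 CPM with Veh and 283 and 275 CPM with CC. Its libraries with CC were below those with Veh under both labels. It fell by 0.29 ± 0.042 with the label steatotic (adjusted p = 0.00208). The change of -0.13 with the label normal did not pass (adjusted p = 0.0997).

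Counted within each library, *Tnfrsf1b* had 2.21 and 2.30 times the counts of *Tnfrsf1a* with Veh and 3.38 and 3.43 times with CC in the libraries labelled normal. In those labelled steatotic the ratio was 2.51 and 2.42 with Veh and 5.16 and 4.50 with CC. The 2 libraries with CC had the higher ratios under each label, and the steatotic pair with CC had the highest of the 8. The plot of *Tnf* and its receptors shows these values by library.

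**Figure D2:**
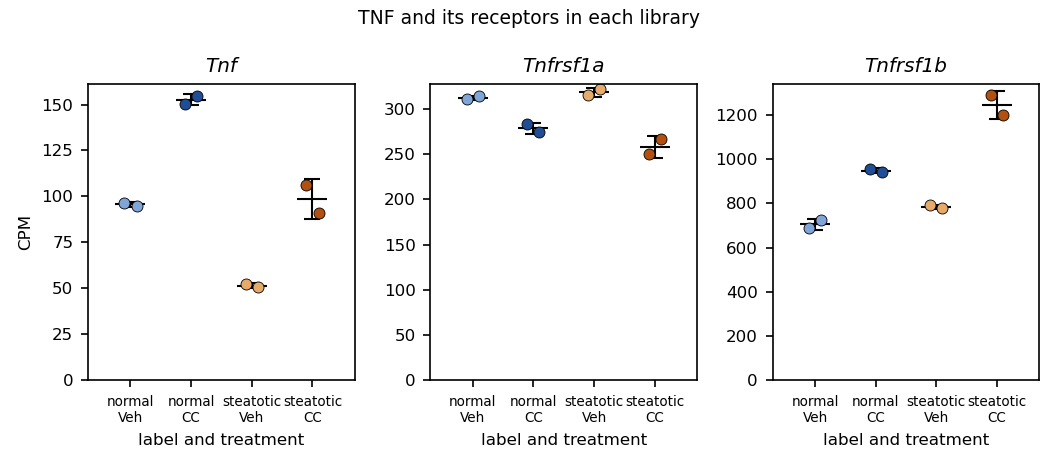
CPM of *Tnf*, *Tnfrsf1a* (TNFR1) and *Tnfrsf1b* (TNFR2) in each library by liver label and treatment, with points for libraries, wide ticks for group means and bars for the SD (n = 2). *Tnf* and *Tnfrsf1b* are higher with CC than with Veh under both labels, *Tnfrsf1a* is lower, and *Tnf* is lower under the label steatotic than under the label normal at each treatment.

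*Fas*, the death receptor for Fas ligand, was at 7.16 and 5.74 CPM with Veh and at 14.5 and 13.9 CPM with CC under the label steatotic. The normal libraries had 6.18 and 7.41 CPM with Veh and 9.31 and 8.54 CPM with CC. Both steatotic libraries with CC stood above all other 6, and the 4 libraries with Veh overlapped. The log2 fold change with CC was 1.16 ± 0.15 (2.23-fold, adjusted p = 0.00109) with the label steatotic and 0.43 ± 0.15 with the label normal, which did not pass (adjusted p = 0.114). The difference of 0.73 between the responses had a 95% interval from 0.24 to 1.21 and did not pass over all genes (adjusted p = 0.139). *Fasl*, its ligand, had 52 to 54 counts in each library labelled steatotic and 0, 5, 0 and 0 counts in those labelled normal.

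*Tnfrsf8*, which encodes CD30, was at 1.29 and 1.32 CPM with Veh and at 2.85 and 3.19 CPM with CC under the label steatotic. Its normal libraries stood at 0.836 and 0.981 CPM with Veh and 1.81 and 1.43 CPM with CC. The libraries with CC did not overlap those with Veh under either label. The rise was 1.23 ± 0.22 (adjusted p = 0.0063) with the label steatotic, and the change of 0.87 ± 0.23 with the label normal was just outside the limit (adjusted p = 0.0511). *Tnfsf18*, which encodes GITR ligand, was at 0.468 and 0.476 CPM with Veh and at 0.915 and 1.81 CPM with CC under the label steatotic. Under the label normal it was at 1.36 and 1.31 CPM with Veh and 1.78 and 1.70 CPM with CC. Its steatotic libraries with CC differed 1.98-fold from each other. The rise of 1.55 ± 0.36 (adjusted p = 0.0184) came to 0.97 without the steatotic CC replicate 2 (adjusted p = 0.089) and was also lost without either steatotic Veh library. With the groups of the comparison alone this rise was lost as well (adjusted p = 0.0554). The change with the label normal was 0.42 (95% interval -0.37 to 1.21) and did not pass (adjusted p = 0.513).

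*Cd40*, the receptor through which T cells activate macrophages, rose by 0.69 ± 0.14 with the label steatotic (adjusted p = 0.0102) and by 0.66 ± 0.14 with the label normal (adjusted p = 0.0227). Its means were 12.6 ± 0.900 CPM (SD, n = 2) with Veh and 20.1 ± 0.959 CPM with CC under the label steatotic, and 9.51 ± 1.81 and 14.7 ± 1.09 CPM under the label normal. The first call was lost without the steatotic Veh replicate 2 or the steatotic CC replicate 1 (adjusted p up to 0.0666). The second was lost without the normal Veh replicate 1 or either normal CC library (adjusted p up to 0.117). The call of *Cd40* with the label normal was also lost with the groups of the comparison alone (adjusted p = 0.0521). *Tnfsf12*, the TNF-like ligand TWEAK, rose by 0.68 ± 0.11 (adjusted p = 0.00368) with the label steatotic, from 29.0 ± 1.65 to 46.0 ± 3.73 CPM. Its change of 0.38 with the label normal did not pass (adjusted p = 0.0689). *Tnfsf9*, the 4-1BB ligand, rose by 0.74 ± 0.12 (adjusted p = 0.00358) with the label steatotic, from 4.81 ± 0.117 to 7.96 ± 0.951 CPM. The change of 0.23 with the label normal did not pass (adjusted p = 0.283). Reads of *Tnfsf12* can be shared with *Tnfsfm13*, a gene on the same strand that overlaps it, and *Tnfsf9* overlaps *Gm11110* on the opposite strand.

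*Tnfrsf11a*, the receptor RANK, fell under both labels. It was at 166 and 163 CPM with Veh and at 111 and 112 CPM with CC under the label steatotic. The libraries labelled normal were at 121 and 126 CPM with Veh and 92.5 and 98.2 CPM with CC. The log2 fold changes were -0.54 ± 0.046 (adjusted p = 0.000144) and -0.34 ± 0.046 (adjusted p = 0.0032). *Tnfsf10*, the apoptosis-inducing ligand TRAIL, fell with the label steatotic by 0.41 ± 0.074 (adjusted p = 0.00587), from 42.9 ± 1.75 to 31.9 ± 2.32 CPM. Its change of -0.21 with the label normal did not pass (adjusted p = 0.133). *Ltbr* stayed between 114 and 126 CPM in all 8 libraries, and none of its changes passed.

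In the libraries labelled normal, 7 members rose and 1 fell with CC, 22.9% of the 35, where 11.8% of all tested genes passed, 6.27% higher and 5.54% lower. The median log2 fold change of the members was 0.10, against -0.001 over all tested genes. The members that passed were *Tnf*, *Tnfrsf1b*, *Cd40*, *Tnfrsf23*, *Tnfrsf12a*, *Tnfsf4* and *Lta*, which were higher, and *Tnfrsf11a*, which was lower. Of these, *Lta*, *Tnfrsf12a*, *Tnfrsf23* and *Cd40* each lost the call in at least 1 of the 8 fits without 1 library. The 2 largest changes were those of *Tnfsf4* and *Lta*, and both genes were near the limit of detection with Veh.

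*Tnfsf4*, which encodes OX40 ligand, a costimulatory ligand for T cells, was at 0.170 and 0.121 CPM with Veh and at 0.833 and 0.733 CPM with CC under the label normal. With the label steatotic, it was at 6.73 and 5.00 CPM with Veh and 5.00 and 3.88 CPM with CC. All libraries labelled steatotic stood above all labelled normal, and among the normal ones both with CC stood above both with Veh. It rose by 2.45 ± 0.32 with CC under the label normal (5.45-fold, adjusted p = 0.00229), whereas the change under the label steatotic was -0.39 ± 0.23 (95% interval -0.92 to 0.15, adjusted p = 0.295). The responses differed by -2.83 ± 0.40 (95% interval -3.75 to -1.91, adjusted p = 0.0101). The normal libraries with Veh held 8 and 12 counts, about 5 fragments together, against about 24 with CC, a ratio of 5.42 with a 95% counting interval from 2.03 to 18.2.

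*Lta*, which encodes lymphotoxin alpha, a ligand made mainly by lymphocytes, was at 0.0992 and 0.121 CPM with Veh and at 0.352 and 0.409 CPM with CC under the label normal. The steatotic libraries were at 0.717 and 1.24 CPM with Veh and 1.60 and 1.80 CPM with CC. Under each label the libraries with CC stood above those with Veh. It rose by 1.81 ± 0.46 with the label normal (adjusted p = 0.0397), on about 12 fragments against 4 (ratio 3.39, 95% counting interval 1.03 to 14.4). The change of 0.81 with the label steatotic did not pass (adjusted p = 0.163). The first call passed in 2 of the 8 fits without 1 library, with an adjusted p of 0.165 without the normal Veh replicate 1, and was lost without any normal library or either steatotic CC library. It was also lost with counts divided by 4 and with the groups of the comparison alone (adjusted p up to 0.192).

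*Tnfrsf12a*, which encodes Fn14, the receptor of TWEAK, rose by 0.48 ± 0.12 with the label normal (adjusted p = 0.0383), from 9.93 ± 0.779 to 13.5 ± 1.67 CPM. It changed by -0.27 with the label steatotic (adjusted p = 0.155), from 11.3 ± 0.0248 to 9.27 ± 0.372 CPM. The call passed in 1 of the 8 fits without 1 library, that without the normal CC replicate 1, and the adjusted p was 0.187 without the normal CC replicate 2. It was also lost with the replicate number as a block in the fit (the replicate block) and with the groups of the comparison alone (adjusted p up to 0.0783). The difference between the responses was -0.75 (95% interval -1.14 to -0.37) and did not pass in edgeR (adjusted p = 0.0623), although it passed in DESeq2 and without the filter on low counts. It passed in none of the 8 fits without 1 library (adjusted p up to 0.166). Its ligand *Tnfsf12* was higher with CC in both libraries of each label.

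*Tnfrsf23*, a decoy receptor for TRAIL in the mouse, was at 22.9 and 24.1 CPM with Veh and at 42.1 and 38.5 CPM with CC under the label steatotic. In the libraries labelled normal, it was at 47.6 and 46.4 CPM with Veh and 56.5 and 55.0 CPM with CC. The libraries with CC stood above those with Veh under both labels, and all 4 normal libraries stood above all 4 steatotic ones. It rose by 0.80 ± 0.066 with the label steatotic (adjusted p = 0.000124) and by 0.28 ± 0.066 with the label normal (adjusted p = 0.0323). The responses differed by 0.51 ± 0.093 (adjusted p = 0.0298). The rise under the label normal was lost without any 1 of the 4 normal libraries (adjusted p up to 0.144). The difference between responses passed in 1 of the 8 fits without 1 library, that without the steatotic CC replicate 2 (adjusted p up to 0.105). In edgeR with the replicate block, the rise under the label normal and the difference between responses were lost as well (adjusted p = 0.0514 and 0.0535). *Tnfrsf23* and its neighbor *Tnfrsf26* overlap *E230032D23Rik* on the opposite strand.

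The difference between the CC responses passed for *Tnfsf4* and *Tnfrsf23* alone, 2 of the 35 members (5.71%), against 3.22% of all tested genes, 1.95% higher and 1.27% lower. Without the steatotic CC replicate 2 the count was 3. Those of *Tnfsf9* (0.51, adjusted p = 0.206) and *Tnfsf18* (1.13, adjusted p = 0.359) did not pass. For *Tnfrsf1b* the difference was 0.22 (95% interval 0.07 to 0.36, adjusted p = 0.145). The comparisons with CC and between labels share libraries, so the values of a member in them are not independent of each other.

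**Figure D3:**
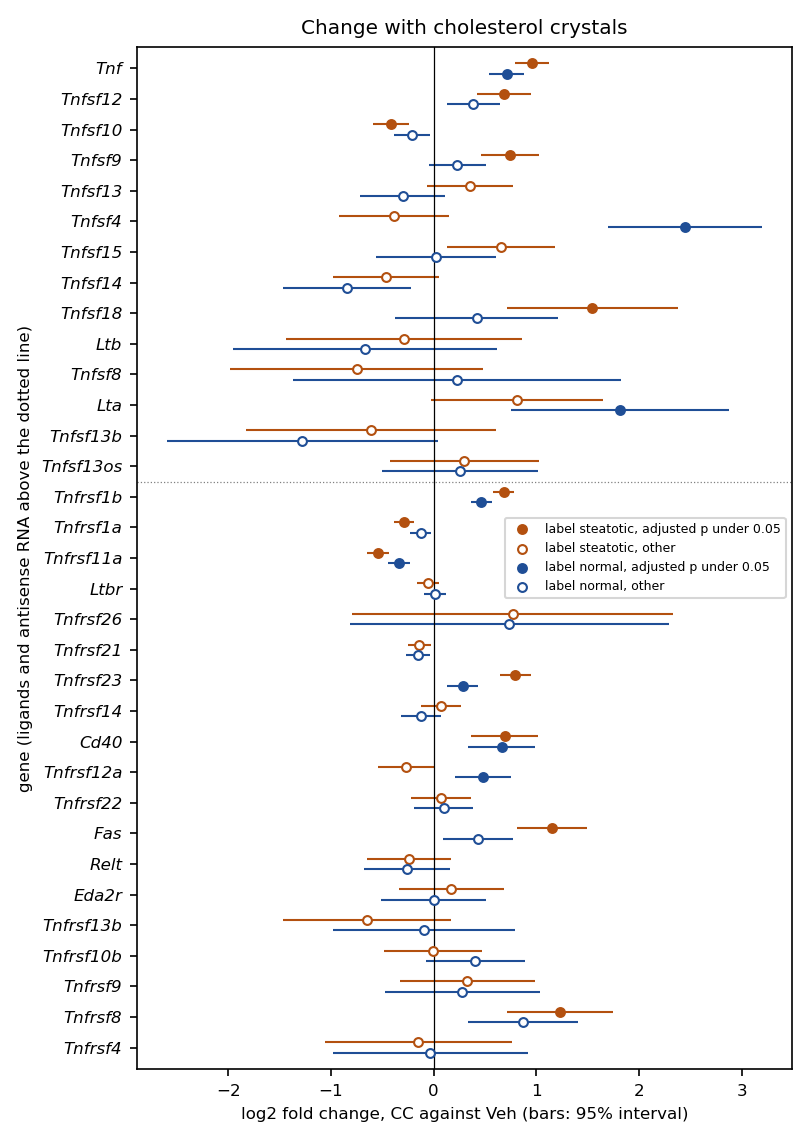
Log2 fold change of CC against Veh for 33 members under each liver label, with bars for the 95% interval and filled points for an adjusted p under 0.05 (*Fasl* and *Tnfrsf18*, with libraries at 0 counts, are left out). *Tnf*, *Tnfrsf1b*, *Cd40* and *Tnfrsf23* are filled on the right of 0 under both labels and *Tnfrsf11a* on the left. *Fas*, *Tnfrsf8*, *Tnfsf18*, *Tnfsf12* and *Tnfsf9* are filled under the label steatotic alone and *Tnfsf4*, *Lta* and *Tnfrsf12a* under the label normal alone, and a filled point under 1 label alone is no test of the difference.

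**Figure D4:**
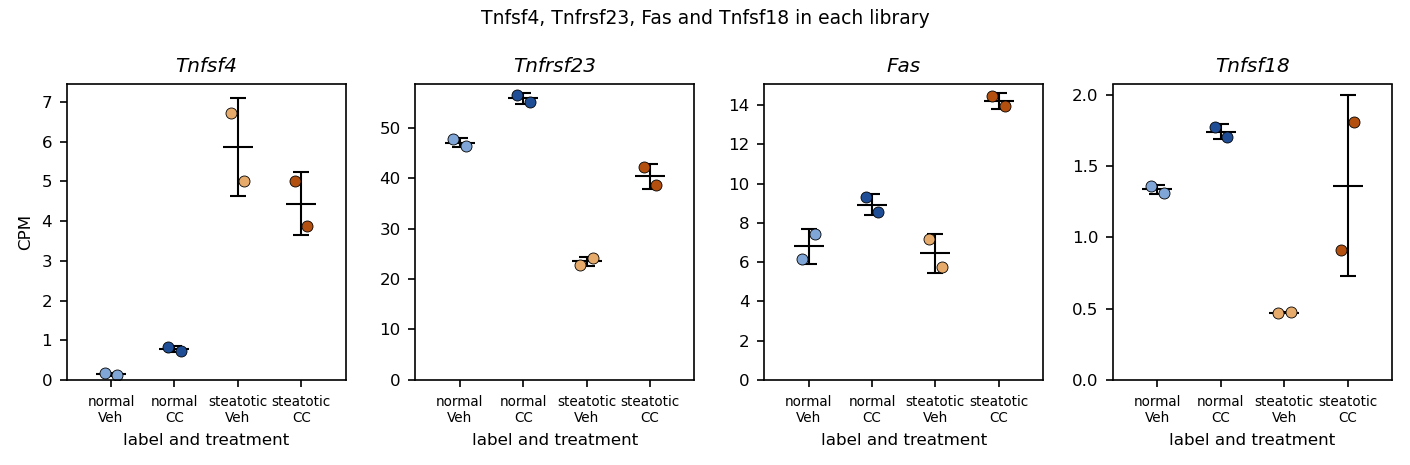
CPM of *Tnfsf4*, *Tnfrsf23*, *Fas* and *Tnfsf18* in each library by liver label and treatment, with points for libraries, wide ticks for group means and bars for the SD (n = 2). In the normal libraries *Tnfsf4* is higher with CC than with Veh, *Fas* is highest in the 2 steatotic libraries with CC, and these 2 lie far apart for *Tnfsf18*.

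Markers of other cell types moved with CC as well. In the libraries labelled steatotic, the summed level of 5 stellate cell markers was 18.7 to 22.5 CPM with Veh and 109 to 136 CPM with CC. Of these markers *Dcn* rose and *Lrat* was at 0. The 5 neutrophil markers, of which *S100a8* rose, summed to 4.59 to 5.50 and 18.5 to 19.5 CPM. The 5 Kupffer cell markers summed to 3893 to 3971 CPM with Veh and 2548 to 3052 CPM with CC there, and to 2742 to 2785 and 2147 to 2362 CPM in the libraries labelled normal. With the label normal, stellate cell markers summed to 4.07 to 4.35 CPM with Veh and 8.13 to 9.69 CPM with CC, neutrophil markers to 9.08 to 9.94 and 14.4 to 15.0 CPM, and dendritic cell markers to 5.54 to 5.81 and 10.2 to 10.7 CPM. T and NK cell markers, of which *Cd8a* and *Ncr1* fell, summed to 4.03 to 4.75 and 2.79 to 2.91 CPM there. The 5 macrophage markers summed to 14405 to 14852 CPM with Veh and 11540 to 11681 CPM with CC under the label normal, where 4 fell, and to 9181 to 9402 and 8131 to 8909 CPM under the label steatotic, where 3 fell and 1 rose. Endothelial markers summed to 136 to 141 and 164 to 169 CPM under the label normal, where *Cdh5* rose, and to 235 to 239 and 211 to 223 CPM under the label steatotic, where all 4 tested passed, 3 higher and 1 lower. The 6 B cell markers summed to 6.41 to 7.03 CPM with Veh and 3.81 to 4.75 CPM with CC under the label steatotic, where *Ms4a1* fell. No hepatocyte or dendritic cell marker passed with CC under either label. The part of these markers in the changes of the members, *Tnfsf4* included, was not tested.

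The second question was how the members differed between the liver labels. Of the 31 members that reached the level limit under both labels, 14 were higher and 7 lower with the label steatotic at Veh, 67.7% in all, where 30.7% of all tested genes passed, 16.4% higher and 14.3% lower. With CC, 16 were higher and 5 lower, again 67.7%, against 28.8% of all tested genes, 15.9% higher and 12.9% lower. The median log2 difference of these 31 was 0.45 with Veh and 0.48 with CC, against -0.01 and 0.003 over all tested genes. The values over all tested genes include genes that reached the limit under 1 label alone, so the 2 sets were not filtered alike. *Fasl*, *Lta*, *Tnfrsf18* and *Tnfsf8*, which passed the limit through steatotic libraries alone, are left out of these counts and described by their levels. The limit was counted over both treatments together, so some of the 31 stood below 0.5 CPM within a comparison. At Veh, *Tnfsf4* did so in both normal libraries and *Tnfsf18* in both steatotic ones. With CC, *Tnfsf14* and *Tnfsf13b* did so in both normal libraries. *Tnf*, *Tnfsf9* and the decoy receptors *Tnfrsf22* and *Tnfrsf23* were lower at both treatments.

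*Tnfsf4* differed by 5.36 ± 0.31 on the log2 scale with Veh (adjusted p = 1.41e-05) and by 2.53 ± 0.25 with CC (adjusted p = 0.00028). The first corresponds to about 207 fragments against 5, a ratio of 39.9 with a 95% counting interval from 16.8 to 124. *Tnfsf14*, which encodes LIGHT, was at 4.32 and 3.72 CPM with Veh and 3.13 and 2.63 CPM with CC under the label steatotic. With the label normal, it was at 0.595 and 0.619 CPM with Veh and 0.385 and 0.273 CPM with CC. All steatotic libraries stood above all normal ones, by 2.77 ± 0.24 with Veh (adjusted p = 0.000118) and 3.15 ± 0.25 with CC (adjusted p = 0.000103). Its receptor *Tnfrsf14*, which encodes HVEM, was higher by 0.73 ± 0.083 with Veh (adjusted p = 0.000455) and 0.92 ± 0.083 with CC (adjusted p = 0.000164). *Ltbr*, its other receptor, did not pass at either treatment.

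*Tnfsf15*, which encodes TL1A, was at 3.54 and 3.36 CPM with Veh and 4.64 and 6.09 CPM with CC under the label steatotic. The normal libraries were at 0.892 and 0.846 CPM with Veh and 0.705 and 1.02 CPM with CC. The labels did not overlap, and the difference was 2.03 ± 0.24 with Veh (adjusted p = 0.000581) and 2.66 ± 0.24 with CC (adjusted p = 0.000187). *Tnfrsf25*, which encodes its receptor DR3, was not above the level limit. *Tnfsf10* (TRAIL) was higher by 0.89 ± 0.074 with Veh (adjusted p = 9.52e-05) and by 0.68 ± 0.075 with CC (adjusted p = 0.000461). Its death receptor *Tnfrsf10b* did not pass at either treatment. Its decoy *Tnfrsf23* was lower (-0.96 ± 0.066 with Veh, adjusted p = 3.59e-05, and -0.44 ± 0.066 with CC, adjusted p = 0.00205), and so was the decoy *Tnfrsf22* (-0.66 ± 0.12, adjusted p = 0.00548, and -0.69 ± 0.12, adjusted p = 0.00507).

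The 4-1BB pair differed in opposite directions. *Tnfrsf9*, which encodes 4-1BB, was at 2.94 and 3.22 CPM with Veh and 3.29 and 4.36 CPM with CC under the label steatotic. The normal libraries had 0.666 and 0.483 CPM with Veh and 0.849 and 0.511 CPM with CC. No steatotic library overlapped a normal one, and the difference was 2.46 ± 0.30 with Veh (adjusted p = 0.000788) and 2.51 ± 0.30 with CC (adjusted p = 0.000832). Its ligand *Tnfsf9* was at 4.73 and 4.89 CPM with Veh and 8.63 and 7.29 CPM with CC under the label steatotic, below its normal libraries at 9.38 and 9.23 CPM with Veh and 10.8 and 10.4 CPM with CC. The log2 difference was -0.91 ± 0.12 with Veh (adjusted p = 0.00102) and -0.39 ± 0.12 with CC (adjusted p = 0.0431). The latter passed in 1 of the 8 fits without 1 library, that without the steatotic CC replicate 1 (adjusted p up to 0.199). It was also lost in DESeq2, without the filter on low counts, under the replicate block and with the groups of the comparison alone (adjusted p up to 0.082).

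*Tnfrsf18*, which encodes the costimulatory receptor GITR, was at 1.08 and 1.18 CPM with Veh and 0.808 and 0.845 CPM with CC under the label steatotic. Its normal libraries stood at 0.156 and 0.226 CPM with Veh and 0 and 0.0682 CPM with CC. These levels correspond to about 40 fragments against 7 with Veh (ratio 5.51 with a 95% counting interval from 2.44 to 14.6) and about 29 against 1 with CC (ratio 25.1, interval 4.16 to 1024), and they are a description, since the gene passed the limit through the steatotic libraries. *Tnfsf18*, the ligand, was lower with Veh (-1.45 ± 0.36, adjusted p = 0.0187), and its difference of -0.32 with CC did not pass (adjusted p = 0.536). The call of *Tnfsf18* with Veh was lost without any 1 of the 4 libraries with Veh (adjusted p up to 0.0806), and *Tnfrsf18* overlaps *Gm16008* on the opposite strand.

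The lymphotoxin genes were low under both labels. *Lta*, with the levels given above, had about 35 fragments with the label steatotic against 4 with Veh (ratio 8.44, 95% counting interval 3.02 to 32.7), again a description of a gene that passed the limit through the steatotic libraries. *Ltb*, which encodes lymphotoxin beta, was at 2.49 and 1.20 CPM with Veh and 1.71 and 1.27 CPM with CC under the label steatotic. Under the label normal it was at 0.595 and 0.574 CPM with Veh and 0.192 and 0.528 CPM with CC. The labels did not overlap, and the differences were 1.70 ± 0.51 (adjusted p = 0.0419) and 2.08 ± 0.53 (adjusted p = 0.0247). Under the replicate block the difference with Veh was lost (adjusted p = 0.0678). The first was 1.08 without the steatotic Veh replicate 1 (adjusted p = 0.237) and was also lost without either normal Veh or either steatotic CC library. The second was lost without the normal CC replicate 1 or either steatotic CC library (adjusted p up to 0.101).

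*Tnfsf8*, which encodes CD30 ligand, was at 2.06 and 1.59 CPM with Veh and 0.884 and 1.26 CPM with CC under the label steatotic. The libraries labelled normal were at 0.184 and 0.121 CPM with Veh and 0.0641 and 0.290 CPM with CC. The ratio was 12.3 with Veh (95% counting interval 5.02 to 39.3) and 6.57 with CC (interval 2.58 to 21.4). For *Fasl*, with the counts given above, about 26 fragments stood against 1 with Veh (ratio 25.1, interval 4.12 to 1028). With CC, where both normal libraries were at 0 counts, it was at least 3.78-fold higher, taking 3 fragments in a library as the floor. Both genes passed the level limit through the steatotic libraries alone, so these values are descriptions without a test.

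Among the better-expressed receptors, *Tnfrsf21*, which encodes the death receptor DR6, was at 92.6 and 93.3 CPM with Veh and 82.2 and 84.6 CPM with CC under the label steatotic. In the libraries labelled normal, it was at 42.6 and 41.2 CPM with Veh and 35.8 and 37.6 CPM with CC. The pairs of libraries lay close together and the labels far apart, with a difference of 1.20 ± 0.048 with Veh (2.29-fold, adjusted p = 2.98e-06) and 1.21 ± 0.049 with CC (2.31-fold, adjusted p = 2.9e-06). *Relt*, a receptor of the family with an incompletely known role, was at 7.82 and 7.76 CPM with Veh and 5.75 and 7.29 CPM with CC under the label steatotic. With the label normal, it was at 3.60 and 4.17 CPM with Veh and 3.49 and 2.81 CPM with CC. It was higher by 1.05 ± 0.18 (adjusted p = 0.00334) and 1.07 ± 0.18 (adjusted p = 0.00354).

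*Tnfrsf13b*, which encodes TACI, a receptor for the B cell survival factors BAFF and APRIL, was at 5.47 and 4.35 CPM with Veh and 3.38 and 2.82 CPM with CC under the label steatotic. The normal libraries had 1.37 and 0.830 CPM with Veh and 0.673 and 1.35 CPM with CC. It was higher by 2.20 ± 0.36 with Veh (adjusted p = 0.00337) and 1.65 ± 0.37 with CC (adjusted p = 0.0137). The latter was lost without the normal CC replicate 1 or the steatotic CC replicate 1 (adjusted p up to 0.0654). Of its ligands, *Tnfsf13* (APRIL) was lower with Veh, 2.58 ± 0.115 against 4.97 ± 0.499 CPM (-0.90 ± 0.18, adjusted p = 0.00739), and did not pass with CC (-0.24, adjusted p = 0.367). The other, *Tnfsf13b* (BAFF), stayed between 0.240 and 1.52 CPM and passed in no comparison. The antisense RNA *Tnfsf13os* was at 2.24 and 2.75 CPM with Veh and 3.61 and 2.46 CPM with CC under the label steatotic. Its normal libraries were at 1.46 and 0.951 CPM with Veh and 1.65 and 1.16 CPM with CC. It was higher by 1.09 ± 0.32 (adjusted p = 0.0369) and 1.13 ± 0.32 (adjusted p = 0.0333). These calls were lost without the normal Veh replicate 2 or either steatotic Veh library (adjusted p up to 0.168) and without either normal CC library or the steatotic CC replicate 1 (adjusted p up to 0.166). *Tnfsf13*, like *Tnfsf12*, overlaps *Tnfsfm13* on the same strand and can share reads with it. Exons of *Tnfsf13os* overlap those of *Tnfsf13* on the other strand, the library kit keeps the strand, and whether the counting used it is not given in the sources used here.

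*Tnf* itself was 1.80-fold lower with the label steatotic at Veh (-0.85 ± 0.072 on the log2 scale, adjusted p = 9.84e-05) and 1.52-fold lower with CC (-0.60 ± 0.072, adjusted p = 0.000674). *Tnfrsf1b* was higher by 0.20 ± 0.045 with Veh (adjusted p = 0.0123) and by 0.42 ± 0.045 with CC (adjusted p = 0.000394). The first call was lost without the normal Veh replicate 1 or the steatotic Veh replicate 1 (adjusted p up to 0.0728). *Tnfrsf1a* differed by 0.07 with Veh and -0.09 with CC and did not pass (adjusted p = 0.229 and 0.179). *Tnfrsf11a* was higher by 0.45 ± 0.046 (adjusted p = 0.000264) and 0.25 ± 0.046 (adjusted p = 0.00546).

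*Cd40* was higher by 0.45 ± 0.14 with Veh (adjusted p = 0.0454) and 0.48 ± 0.14 with CC (adjusted p = 0.0369). The call with Veh was lost with library size only, under the replicate block and with the groups of the comparison alone (adjusted p up to 0.0868). That with CC was lost under the replicate block (adjusted p = 0.0592). These calls passed in 1 and 3 of the 8 fits without 1 library (adjusted p up to 0.194 without the normal Veh replicate 1 and 0.165 without the normal CC replicate 2). With CC alone, *Fas* was higher by 0.70 ± 0.15 (adjusted p = 0.01, and 0.0617 without the normal CC replicate 2). *Tnfrsf8* was higher by 0.92 ± 0.22 (adjusted p = 0.0182, lost without the normal CC replicate 2 or either steatotic CC library, up to 0.0959). *Tnfrsf12a* was lower (-0.52 ± 0.12, adjusted p = 0.0139, lost without the normal CC replicate 2 or the steatotic CC replicate 2, up to 0.0837). *Tnfsf12* was lower with Veh alone (-0.44 ± 0.11, adjusted p = 0.0203, lost without the normal Veh replicate 1 or either steatotic Veh library, up to 0.110). Whether such a member differed more at 1 treatment than at the other is the difference between responses given above. *Tnfrsf4* (OX40), *Eda2r*, *Tnfrsf10b*, *Ltbr*, *Tnfsf13b* and *Tnfrsf26* passed in none of the comparisons.

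**Figure D5:**
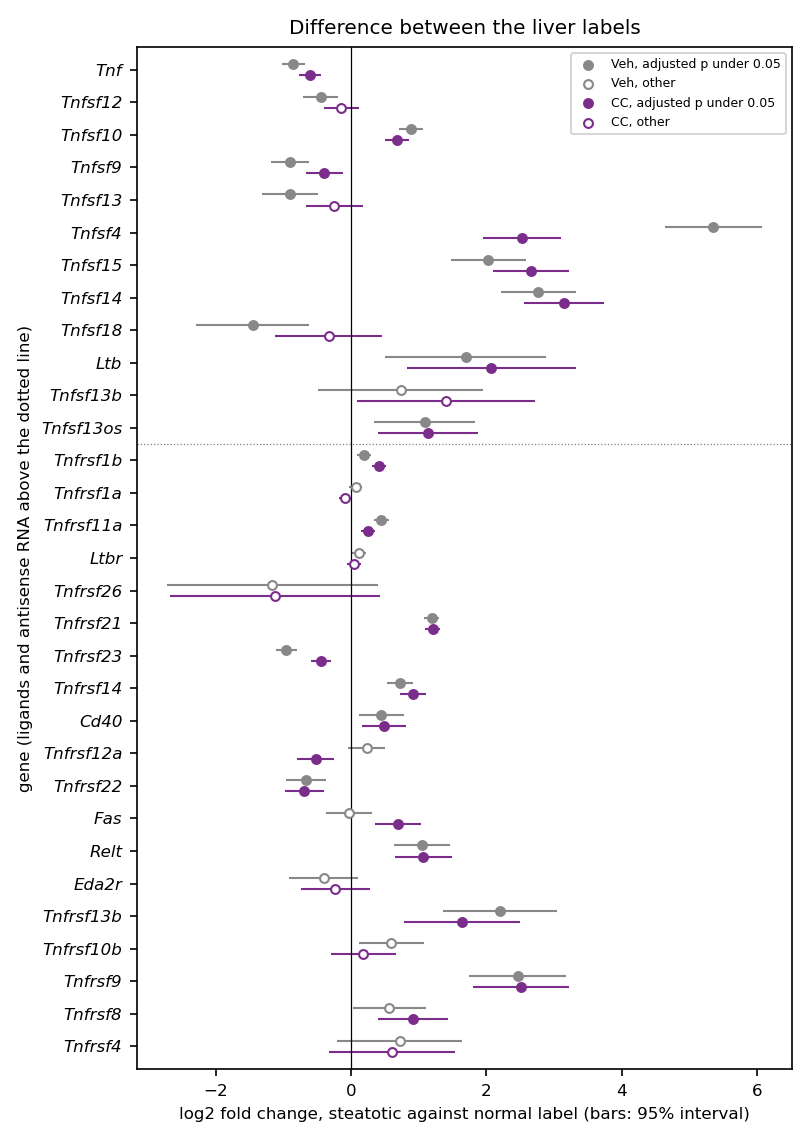
Log2 fold change of the label steatotic against the label normal for the 31 members that reached the level limit under both labels, at Veh and with CC, with bars for the 95% interval and filled points for an adjusted p under 0.05. The points of *Tnfsf4*, *Tnfsf14*, *Tnfsf15*, *Ltb*, *Tnfrsf9* and *Tnfrsf13b* are filled far to the right of 0 at both treatments, and those of *Tnf*, *Tnfsf9*, *Tnfrsf23* and *Tnfrsf22* are filled on the left at both treatments.

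Several members that were higher with the label steatotic are known from lymphocytes, and T and NK cell markers were higher too. At both treatments 9 of the 10 markers of this list passed as higher, with *Cd4* as the exception. Their sum was 19.5 to 22.4 CPM against 4.03 to 4.75 CPM with Veh and 16.1 to 17.5 CPM against 2.79 to 2.91 CPM with CC. *Gzma* was at 0 in both normal libraries with Veh, and *Cd8a* and *Ncr1* in both with CC. The 6 B cell markers summed to 6.41 to 7.03 CPM with the label steatotic and 6.42 to 7.29 CPM with the label normal at Veh, and to 3.81 to 4.75 and 5.91 to 6.68 CPM with CC, where the labels did not overlap and no single marker passed. The 6 dendritic cell markers summed to 9.76 to 9.97 and 5.54 to 5.81 CPM with Veh, where 2 were higher and 2 lower, and to 8.61 to 9.38 and 10.2 to 10.7 CPM with CC, where 1 was higher and 2 lower. The stellate cell markers summed to 18.7 to 22.5 CPM against 4.07 to 4.35 CPM with Veh and to 109 to 136 CPM against 8.13 to 9.69 CPM with CC. Of the 2 tested, *Dcn* was higher at both treatments, and *Rgs5* was lower with CC and did not pass with Veh. Endothelial markers summed to 235 to 239 CPM against 136 to 141 CPM with Veh and to 211 to 223 CPM against 164 to 169 CPM with CC. Hepatocyte markers were lower, at 1.62 to 2.18 CPM against 54.3 to 56.9 CPM with Veh and 2.31 to 2.39 CPM against 47.0 to 54.4 CPM with CC.

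The 5 macrophage markers, of which 2 were higher and 2 lower at each treatment, summed to 9181 to 9402 CPM with the label steatotic against 14405 to 14852 CPM with Veh, and to 8131 to 8909 CPM against 11540 to 11681 CPM with CC. All 5 Kupffer cell markers passed between the labels at both treatments, 3 higher and 2 lower, and their sum was higher with the label steatotic, at 3893 to 3971 CPM against 2742 to 2785 CPM with Veh and 2548 to 3052 CPM against 2147 to 2362 CPM with CC. Neutrophil markers summed to 4.59 to 5.50 CPM against 9.08 to 9.94 CPM with Veh, where *S100a8* was lower, and to 18.5 to 19.5 CPM against 14.4 to 15.0 CPM with CC. The part of these cells in the differences of the members was not tested.

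*Tnfrsf26*, a receptor gene beside *Tnfrsf22* and *Tnfrsf23* in a cluster on chromosome 7 (143607659 to 143685872, GRCm38), differed between the steatotic libraries with CC and passed in no comparison. It was at 35.5 and 37.3 CPM with Veh and at 95.5 and 27.1 CPM with CC under the label steatotic. Its normal libraries stood at 81.9 and 86.0 CPM with Veh and 133 and 139.7 CPM with CC. The 2 steatotic libraries with CC differed 3.52-fold from each other and lay on both sides of those with Veh. The log2 fold change with CC was 0.77 with the label steatotic (95% interval -0.79 to 2.33, adjusted p = 0.454). It was -0.41 without the steatotic CC replicate 1 and 1.41 without the steatotic CC replicate 2, each past the limit of the test, in opposite directions. Its change of 0.74 with CC under the label normal (adjusted p = 0.53) and its difference of -1.16 between the labels at Veh (adjusted p = 0.226) passed in the 2 fits without a steatotic CC library and with the groups of the comparison alone. The groups did not overlap in those comparisons. The difference between the labels with CC was -1.13 (adjusted p = 0.246), and it was -2.305 without the steatotic CC replicate 1 and -0.485 without the steatotic CC replicate 2, past the limit in both fits. The 3 genes of the cluster are related in sequence, so their counts are uncertain where they share reads. In the same steatotic libraries with CC the neighbors lay closer together, *Tnfrsf22* at 8.17 and 6.86 CPM and *Tnfrsf23* at 42.1 and 38.5 CPM, both higher in the library in which *Tnfrsf26* was higher.

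Downstream of the receptors, 33 genes of a list of TNF receptor adaptors, kinases and regulators were all tested. With CC, 10 were higher and 5 lower under the label steatotic, where 22.9% of all tested genes passed, 12.0% higher and 10.9% lower. Under the label normal, 6 were higher and 2 lower, where 11.8% passed, 6.27% higher and 5.54% lower. Between the labels at Veh, 13 were higher and 2 lower, where 30.7% passed, 16.4% higher and 14.3% lower. Between the labels with CC, 11 were higher and 0 lower, where 28.8% passed, 15.9% higher and 12.9% lower. These counts moved with single libraries: the 15 under the label steatotic came to 9 without the steatotic Veh replicate 2, and the 8 under the label normal came to 2 without either normal CC library and to 4 or 5 without any 1 Veh library. The 15 between the labels at Veh came to 7 to 9 without any 1 Veh library, and the 11 with CC to 7 without the normal CC replicate 1. *Traf1*, an adaptor induced by NF-kB, was at 18.2 and 26.2 CPM with Veh and 67.1 and 80.7 CPM with CC under the label steatotic. Under the label normal it was at 12.7 and 9.80 CPM with Veh and 23.9 and 32.5 CPM with CC. Its libraries with CC stood above those with Veh under both labels, by 1.75 ± 0.25 (adjusted p = 0.00559) and 1.36 ± 0.25 (adjusted p = 0.0257). Between the labels it was higher by 1.03 ± 0.25 with Veh (adjusted p = 0.03) and 1.42 ± 0.25 with CC (adjusted p = 0.0101). Without the filter on low counts, the rise under the label normal and the difference with Veh were lost (adjusted p = 0.0881 and 0.0998). The rise under the label normal was lost without either normal Veh library or the normal CC replicate 2 (adjusted p up to 0.124). The difference with Veh was lost without either normal Veh library or the steatotic Veh replicate 2 (up to 0.139), and that with CC was lost without the normal CC replicate 1 or the steatotic CC replicate 2 (up to 0.0525).

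*Ikbkg*, which encodes the NEMO subunit of the IkB kinase, was at 30.7 and 31.5 CPM with Veh and 54.2 and 76.1 CPM with CC under the label steatotic. The libraries labelled normal were at 36.0 and 36.4 CPM with Veh and 56.6 and 52.4 CPM with CC. It rose by 1.09 ± 0.15 (adjusted p = 0.00237) and by 0.63 ± 0.15 (adjusted p = 0.0394). The latter passed in the 2 fits without a steatotic CC library and was lost in the other 6 fits without 1 library (adjusted p up to 0.181). The rise of *Ikbkg* under the label normal was also lost without the filter on low counts and under the replicate block (adjusted p up to 0.0829). *Traf1* and *Ikbkg* were the only genes of the list past 2-fold in a comparison where they passed. For the difference between responses, 0 of the 33 genes passed in edgeR and 2 in DESeq2, with 6 at an unadjusted edgeR p under 0.05.

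Of the 5 genes of TNF shedding, *Rhbdf2*, which encodes the partner iRhom2 of the sheddase ADAM17, rose with CC under both labels (0.26 ± 0.040, adjusted p = 0.00261, and 0.28 ± 0.040, adjusted p = 0.00383). *Adam10*, another sheddase, fell (-0.40 ± 0.048, adjusted p = 0.000862, and -0.42 ± 0.048, adjusted p = 0.00149). *Timp3*, an inhibitor of ADAM17, was higher with the label steatotic by 1.04 ± 0.13 with Veh (adjusted p = 0.000894) and 0.89 ± 0.13 with CC (adjusted p = 0.0022). *Rhbdf1* was lower (-1.25 ± 0.28, adjusted p = 0.0131, and -1.62 ± 0.29, adjusted p = 0.0049). Its first call was lost without the normal Veh replicate 2 or the steatotic Veh replicate 2 (adjusted p up to 0.0749). *Adam17* itself passed in none of the 4 comparisons.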

How the data were processed

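RNA was sequenced from 8 libraries of cultured hepatic macrophages, 2 for each of 4 groups taken from the sample labels. According to the study's methods and the submitters' processing notes, reads were trimmed with fastp, aligned to mm10 with HISAT2 and quantified with StringTie (versions not given in the sources used here). The authors deposited 1 table of estimated counts per gene (GENCODE M21 identifiers), whose values are whole numbers, so no rounding was needed. How counts were derived from the StringTie output, and whether strand was used, is not given in the sources used here. Multiples of 4 made up 35.0% to 36.5% of the lowest counts and 23.9% to 27.0% of high counts, so 1 fragment was taken as about 4 counts in ratios of low counts. A floor of 3 fragments is 12 counts, or 0.161 to 0.205 CPM, and floors and counting intervals cover counting error only.

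Library totals were 58668655 to 74529462 counts. The 15202 of 55401 genes that reached 0.5 CPM in any library were fitted with edgeR 4.0.16 (R 4.3.3, limma 3.58.1) as 4 group means, with TMM factors (0.981 to 1.03), quasi-likelihood tests and Benjamini-Hochberg adjustment over all 15202 genes. Fold changes used a prior count of 0.125. CPM values in the text are counts scaled by the library total, without the TMM factor. An exact permutation test of 2 against 2 libraries cannot go below 0.333 and was not used. Between the labels, the 4 members that reached the limit through steatotic libraries alone were left out of counts and tests, a choice made after their values were seen. Scripts were tested on simulated data. Values in every library are given for *Tnf* and for each tested member with an adjusted p under 0.05, an absolute log2 fold change of at least 1 in a comparison and a group mean of at least 1 CPM. Genes of the signalling list are named under the same limits on p and fold, and markers by list. Values in every library of *Tnfrsf1a*, *Tnfrsf1b*, *Tnfrsf11a*, *Tnfrsf23*, *Tnfrsf26* and *Tnfsf9*, and counts of *Fasl*, are given as well, chosen after their values were seen. The members, lists and rules were chosen with earlier results of these data known. Alternatives were DESeq2 1.42.0, DESeq2 size factors, library size only, no filter, stricter filters, counts divided by 4, a replicate block, the groups of a comparison alone and each library left out. Figures were drawn with matplotlib 3.10.9. Promoter windows came from RefSeq (GRCm38.p6), and *Cd40*, *Cd40lg*, *Cd70*, *Tnfrsf10b*, *Tnfrsf11b*, *Tnfrsf22*, *Tnfrsf26*, *Tnfsf12*, *Tnfsf13os*, *Tnfsf4* and *Tnfsf9* had no entry.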

Additional observations from a re-analysis of the deposited data

Results flagged for a closer look

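For 2 members the response to CC differed between the liver labels by the edgeR test of that difference, steatotic minus normal. For *Tnfsf4* (OX40 ligand) it was -2.83 on the log2 scale (95% interval -3.75 to -1.91, adjusted p = 0.0101), the change with CC being -0.39 with the label steatotic and 2.45 with the label normal, where the Veh libraries held 12 and 8 counts. For *Tnfrsf23*, a TRAIL decoy receptor, it was 0.51 (95% interval 0.30 to 0.73, adjusted p = 0.0298), the changes being 0.80 and 0.28. That difference was lost under the replicate block (edgeR adjusted p = 0.0535). The call of *Tnfsf4* held in all 8 fits without 1 library, and that of *Tnfrsf23* in 1, the fit without the steatotic CC replicate 2.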

How the results depend on the processing

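Over the alternatives other than the 2-fold limit and left-out libraries, the number of members called was 11 to 13 for CC with the label steatotic (12 as reported), 6 to 10 with the label normal (8), 19 to 21 of the 31 between labels with Veh (21), 19 to 21 with CC (21) and 1 to 3 for the difference between responses (2). With a 2-fold limit these were 3, 2, 10, 9 and 1, and the signalling genes 2, 1, 1 and 1 for the first 4 comparisons (15, 8, 15 and 11 as reported). For the difference between responses, where 0 signalling genes passed (6 at an unadjusted p under 0.05), 2 passed in DESeq2, 1 with library size only, 3 without a filter and 1 under the replicate block. The deviations of same-numbered libraries of different groups had correlations of -0.004 to 0.06. This shows no strong shared deviation, but cannot tell whether such libraries came from the same mice or cultures. The replicate block left 1 member, *Tnfsf4*, for the difference between responses. Leaving out 1 library gave 10 to 12, 5 to 7, 15 to 20, 15 to 20 and 1 to 3 members and 9 to 15, 2 to 9, 7 to 15, 7 to 11 and 0 to 2 signalling genes. Without the steatotic CC replicate 1, 2 values that had not passed reversed, *Tnfrsf26* with CC under the label steatotic (-0.409 to 1.411 over the libraries left out) and *Tnfsf18* between labels with CC (-0.9 to 0.081). Of the values of single genes, 1024 kept direction and side of the threshold, 75 lost and 11 gained the call under the other alternatives, and 777, 109 and 8 did so without 1 library. The counts 1024, 75 and 11 include the 2-fold limit, under which every call below 2-fold is lost by rule. The causes were not tested. The filter at a mean of 1 CPM was chosen after seeing the data and leaves the lowest members out. At 0.5 CPM a library held 29.3 to 37.3 counts, which limits the precision of the lowest members.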
